A study of Mus with 4 samples.

Results

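Gpx3 and 5 related genes of peroxide defence and selenium transport were followed in RNA-seq read counts of liver sinusoidal endothelial cells (LSECs), which form the porous wall of the liver's smallest vessels. The set comprised 6 of the 54532 genes in the deposited table: Gpx1, Gpx3, Gpx4, Gpx7, Gpx8 and Selenop. It was drawn up because Gpx3 was over 7-fold higher in the knockout, and each symbol was paired with its Ensembl identifier in that selection rule, since the deposited table holds identifiers only. Gpx3, at 7.55-fold, was the 1 gene of the set past that threshold, and the next highest, Selenop, stood at 1.33-fold. The knockout to control differences of the 6 genes are therefore given as a description. The calls that the test over all genes made for them are counted, also under other settings, and nothing is read from them.

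All mice had received CCl4 (carbon tetrachloride), which injures the liver. The control group, labelled CTL, had 2 libraries (CTL1 and CTL2), and the group labelled Pofut1KO or P1KO had 2 (KO1 and KO3). The title of the series places the loss of POFUT1, a glycosyltransferase that adds fucose to EGF-like repeats such as those of Notch receptors, in the endothelium. The design text presents the sequencing as a search for how POFUT1 acts on LSECs and on hepatic stellate cells. The promoter that drove the deletion, the strain, age and sex of the mice, the CCl4 dose and the number of mice behind a library were not stated in the labels. Column KO3 carries a number found in no sample title, so only its group, P1KO, was assigned. The labels name liver and LSECs, whereas the RNA extraction protocol names heart ventricles. Neither Pofut1 nor the defining markers of any cell type are analysed here, so the labelled genotype and cell type were not checked.

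Glutathione peroxidases reduce hydrogen peroxide and lipid hydroperoxides, mostly at the expense of glutathione. GPX1, GPX3 and GPX4 carry selenocysteine, the selenium analogue of cysteine, at the active site, and GPX7 and GPX8 carry cysteine there. GPX1 is the main enzyme of the cytosol, GPX3 is secreted and is the form found in blood plasma, and GPX4 reduces lipid hydroperoxides within membranes and thereby protects cells from ferroptosis. GPX7 and GPX8 belong to the endoplasmic reticulum, where they use peroxide in oxidative protein folding. Selenoprotein P, the product of Selenop, is no peroxidase of this family. It is a secreted protein with several selenocysteines that carries selenium from the liver to other organs. Plasma GPX3 is best known as a product of the kidney, and selenoprotein P as a product of hepatocytes.

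The libraries held between 17464769 and 17918834 counts, with a read in 21854 to 22100 genes. Levels are CPM, the reads of a gene scaled to the size of its library, with TMM, a correction for differences in library make-up. CPM are not corrected for transcript length, so levels are compared between libraries for the same gene. Whether each library is a mouse of its own is not stated, and the spread within a genotype may thus be technical. In bulk RNA, more or fewer cells of a type and more or less RNA per cell cannot be told apart.

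Gpx3 (ENSMUSG00000018339) lies at chr11:54902854-54910387 in the RefSeq annotation of GRCm38.p6, the assembly that mm10 denotes. The CTL libraries held 632 and 716 of its reads, and the P1KO libraries KO1 and KO3 held 4514 and 5663. These counts correspond to 36.0, 40.1, 256 and 318 CPM. Both P1KO libraries were far above both CTL libraries, and the groups did not overlap. Averaged by genotype, controls stood at 38.0 ± 2.89 CPM and knockouts at 287 ± 43.6 CPM (SD, n = 2 each). The fitted log2 fold change was 2.92 ± 0.11 (SE), or 7.55-fold. The 4 ratios of a P1KO to a CTL library ranged from 6.40 to 8.84. Counting error alone gave a 95% interval of 7.14 to 8.001 for the ratio of the summed reads (exact binomial). The range between single libraries was wider, but it is no interval and each of its ratios rests on fewer reads. Which error is larger was therefore not settled.

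**Figure D1:**
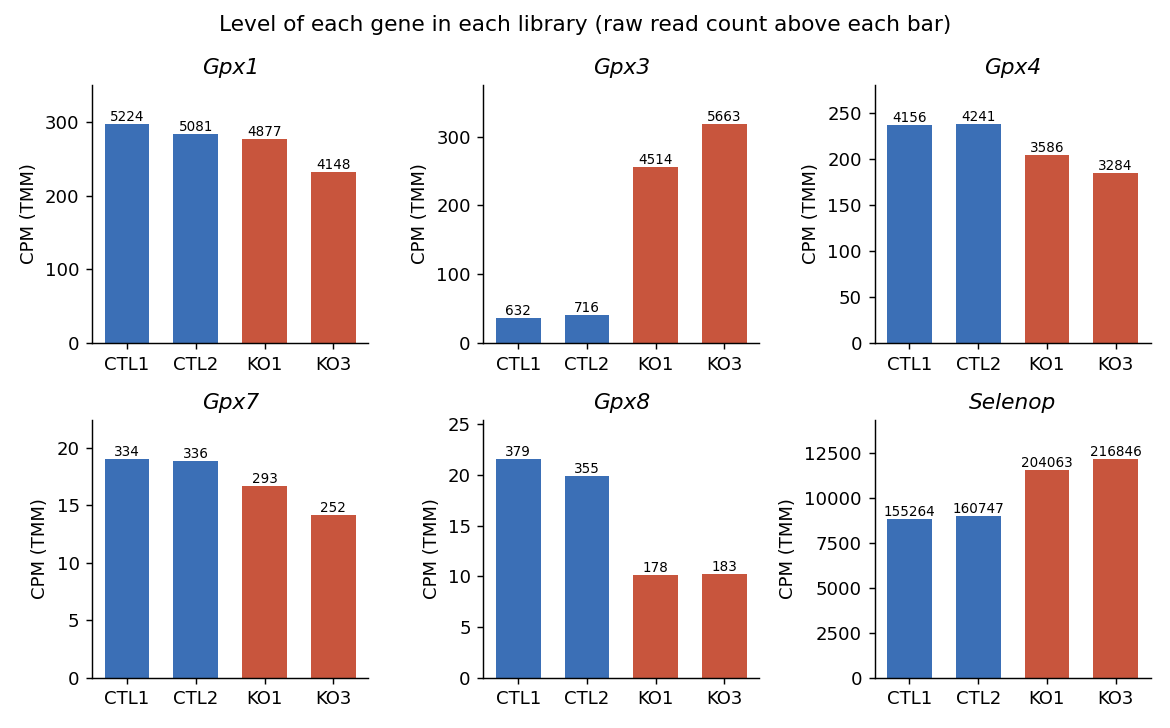
Level of each of the 6 genes in each library, as bars in CPM scaled with TMM (vertical axis from 0, different in each panel), with the raw read count above each bar, CTL in blue and P1KO in red. Gpx3 stands at 36.0 and 40.1 CPM in CTL against 256 and 318 CPM in P1KO, Selenop is higher in both P1KO libraries, and the other 4 genes are lower in both.

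Of the 15510 tested genes, 26 had a larger fitted rise than Gpx3. Most genes with so large a rise were scarce in the controls. Of the 32 genes with a fitted rise over 7-fold, 3 had at least 100 reads in each CTL library. Gpx3 was among these 3, and 1 gene of that depth stood above it. This rank is a description only, since Gpx3 was chosen for its rise in the same contrast. The 2 genes whose profile over the 4 libraries came closest to that of Gpx3 were ENSMUSG00000021822 and ENSMUSG00000058126. Closeness was the Euclidean distance between log2 CPM profiles centred on their own mean, computed for 10974 genes with a mean of at least 5 CPM. The distances were 0.14 and 0.35 on the log2 scale. ENSMUSG00000021822 had 540, 549, 3565 and 4263 reads in CTL1, CTL2, KO1 and KO3. It shared with Gpx3 the rise and the higher count in KO3, which the search by closeness selected for. ENSMUSG00000058126 had 718, 743, 4112 and 4700 reads in the same order. By correlation of the profiles, which ignores the size of a rise, 0 of the 5 closest genes were the same. A profile of 4 libraries is a thin basis for likeness by either measure.

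Selenop (ENSMUSG00000064373; chr15:3270767-3280510) was the other gene of the set that was higher in P1KO, by a far smaller factor. Its counts of 155264 and 160747 in CTL, then 204063 for KO1 and 216846 for KO3, equalled 8842, 9000, 11595 and 12182 CPM. The groups did not overlap, and within each group the libraries lay close together. Averaged by genotype, controls stood at 8921 ± 111 CPM and knockouts at 11888 ± 415 CPM (SD, n = 2 each). The log2 fold change was 0.41 ± 0.037 (SE). The 4 ratios between libraries of different genotype lay between 1.29 and 1.38. Uncorrected for length, Selenop took 0.889% (CTL1) and 0.903% (CTL2) of a control library, which placed it at rank 2 of the table in both. Its part was 1.14% of KO1 and 1.22% of KO3, where it was at rank 1.

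The most widely expressed members of the family, Gpx1 and Gpx4, stood lower in P1KO by small amounts. Gpx1 (ENSMUSG00000063856; chr9:108339080-108340342), which encodes the cytosolic enzyme, had 5224, 5081, 4877 and 4148 reads in CTL1, CTL2, KO1 and KO3. Its level was 298, 284, 277 and 233 CPM in the same order. KO1 lay just under CTL2, and KO3 was well below the other 3 libraries. The log2 fold change of -0.19 ± 0.084 (SE) rested largely on KO3, since it was -0.070 without KO3 and -0.32 without KO1. Controls averaged 291 ± 9.22 CPM and knockouts 255 ± 31.2 CPM (SD, n = 2 each), a difference close to the P1KO spread.

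Gpx4 (ENSMUSG00000075706; chr10:80047166-80056439), the enzyme for membrane lipid hydroperoxides, had 4156 and 4241 reads in the CTL libraries, 3586 in KO1 and 3284 in KO3. At 237 CPM in each CTL library, 204 CPM in KO1 and 184 CPM in KO3, the groups were apart by more than the libraries of either group. The log2 fold change was -0.29 ± 0.064 (SE), with means of 237 ± 0.530 CPM in CTL and 194 ± 13.6 CPM in P1KO (SD, n = 2 each). CTL levels were 1.16 to 1.29 times P1KO levels over the 4 pairs of libraries. RefSeq lists 2 pseudogenes of Gpx4, Gpx4-ps1 and Gpx4-ps2. How the counting treated reads that match both the gene and a copy is not stated, so the Gpx4 counts are uncertain to that extent.

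The genes of the endoplasmic reticulum enzymes were also lower in P1KO, Gpx8 most of all. Gpx8 (ENSMUSG00000021760; chr13:113042757-113046430), whose product is anchored in the membrane of that compartment, was counted 379 and 355 times in the controls, against 178 times in KO1 and 183 times in KO3. The level was 21.6 and 19.9 CPM in CTL against 10.1 and 10.3 CPM in P1KO. The P1KO libraries were almost equal, and both were far below either CTL library. The means of 20.7 ± 1.21 CPM and 10.2 ± 0.118 CPM (SD, n = 2 each) gave a log2 fold change of -1.02 ± 0.12 (SE). CTL levels were 1.93 to 2.13 times P1KO levels over the 4 pairs of libraries. The counting interval of the CTL to P1KO ratio of summed reads was wider, at 1.79 to 2.31 (95%, exact binomial). The range over pairs comes from 2 libraries a group and is no interval, so which error is larger was not settled.

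Gpx7 (ENSMUSG00000028597; chr4:108400217-108406713), which encodes the form in the lumen of the endoplasmic reticulum, had 334, 336, 293 and 252 reads in CTL1, CTL2, KO1 and KO3. Its levels were 19.0, 18.8, 16.6 and 14.2 CPM. Both P1KO libraries were below both CTL libraries, KO3 by more than KO1. The log2 fold change was -0.30 ± 0.12 (SE), and it was -0.18 without KO3 and -0.42 without KO1. The ratio of Gpx8 to Gpx7 reads, which needs no scaling of the libraries, was 1.13 and 1.06 in the controls, against 0.608 for KO1 and 0.726 for KO3. Its 95% counting intervals reached down to 0.908 in CTL and up to 0.882 in P1KO. The ratio of Gpx7 to Gpx4 reads stayed between 0.0767 and 0.0817 in the 4 libraries, with overlapping intervals.

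In the annotation used, Gpx8 lies within the span of Cdc20b over all of its 3674 bases, Gpx7 shares 6392 bases with the non-coding gene Gm32297, and Selenop shares 412 bases with Ccdc152. The labels do not state whether the counting used strand. Reads from these partners could have been discarded or credited to the wrong gene, and the values of Gpx7, Gpx8 and Selenop are uncertain to that extent. No RefSeq gene overlaps Gpx1, Gpx3 or Gpx4.

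**Figure D2:**
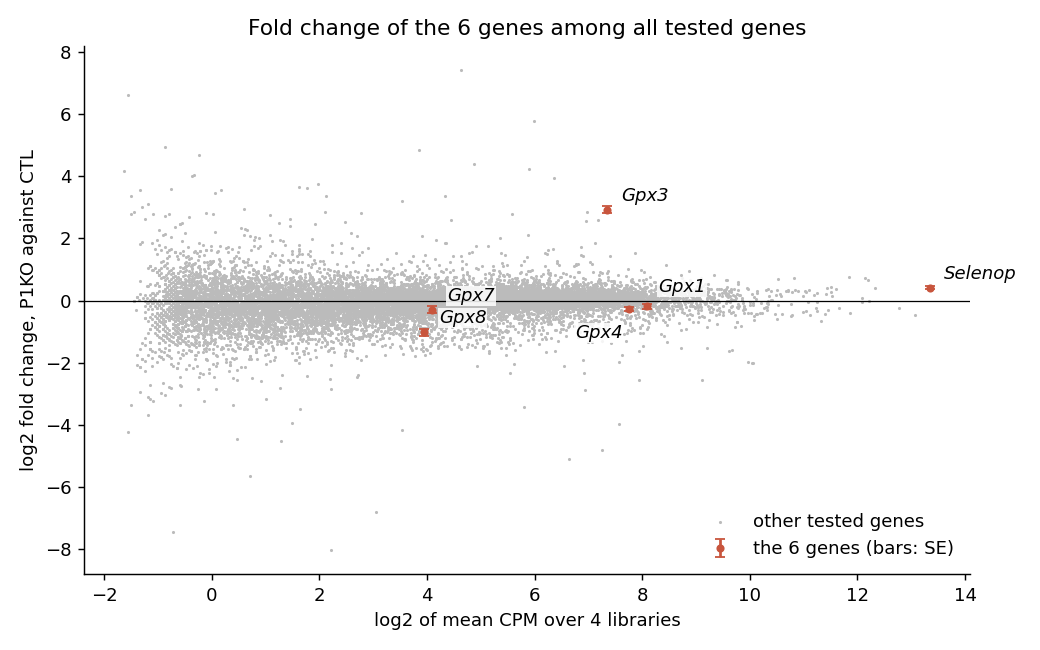
Log2 fold change of P1KO against CTL (vertical axis) against the log2 of the mean CPM over the 4 libraries (horizontal axis) for the 6 genes (red, bars are SE) and all other tested genes (grey points). Gpx3 stands at 2.92, Selenop at 0.41, and the other 4 genes lie between -1.02 and -0.19.

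All 6 genes passed the filter on low counts. Over the set the median log2 fold change was -0.24, and over the 5 genes other than Gpx3 it was -0.29. Over all 15510 tested genes the median was -0.0077, and the middle range from the first to the third quartile ran from -0.26 to 0.18. Gpx1 lay inside that range, Gpx4 and Gpx7 just below it, and Gpx3, Gpx8 and Selenop well outside it. In edgeR's quasi-likelihood test over all genes, at a Benjamini-Hochberg adjusted p below 0.05, 4 of the 6 genes were called in either direction, against 19.5% of all tested genes. Gpx3 and Selenop, 2 of the 6, were called higher, against 9.68% of all tested genes. Gpx4 and Gpx8, another 2, were called lower, against 9.84% of all tested genes, and Gpx1 and Gpx7 did not pass. The groups did not overlap for 6 of 6 genes, as for 62.6% of all tested genes. Nothing is read from these counts, because the set was chosen on this contrast. Without CTL1, or without CTL2, Gpx3 was the only gene of the set called, and the share of all tested genes called was then 0.832% or 0.774%. Without KO1, where 34.8% of all genes were called, all 6 passed.

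The make-up of the glutathione peroxidase reads is given as a description, since the Gpx3 rise that chose the set enters every share and lowers those of the other genes. Shares of the summed reads of the 5 Gpx genes compare the same gene between libraries and do not depend on library scaling. They are not corrected for length. Gpx3 made up 5.89% of these reads in CTL1 (95% interval 5.45% to 6.36%, exact binomial) and 6.67% in CTL2 (6.21% to 7.16%). In KO1 it made up 33.6% (32.8% to 34.4%), and in KO3 41.9% (41.0% to 42.7%). The share of Gpx1 was 48.7% and 47.4% in the CTL libraries, 36.3% in KO1 and 30.7% in KO3. That of Gpx4 was 38.8% and 39.5% in CTL, 26.7% in KO1 and 24.3% in KO3. Gpx7 and Gpx8 each took between 3.11% and 3.53% in CTL, and between 1.32% and 2.18% in P1KO.

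**Figure D3:**
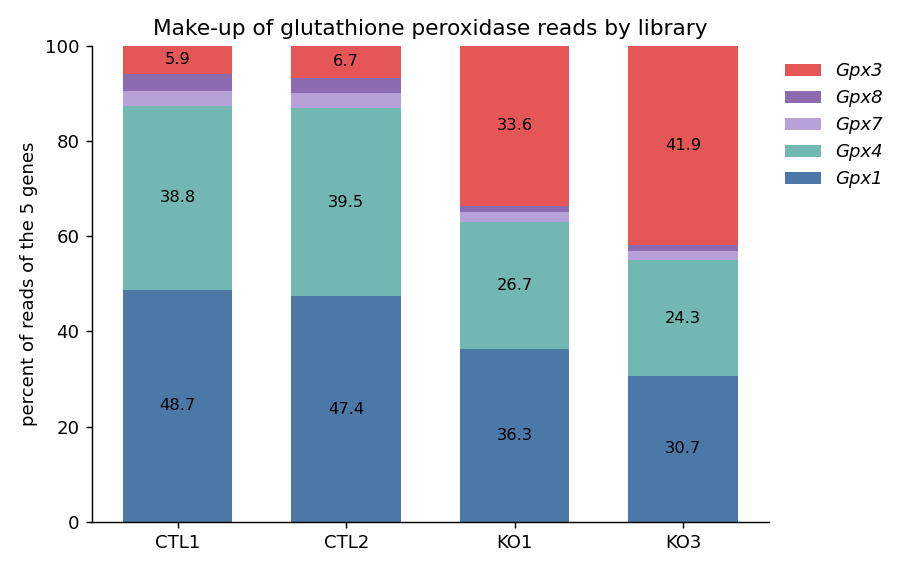
Stacked bars give, for each library, the percent of the summed reads of Gpx1, Gpx4, Gpx7, Gpx8 and Gpx3 that each gene holds (vertical axis from 0 to 100). The Gpx3 part on top is 5.89% and 6.67% in the controls, 33.6% in KO1 and 41.9% in KO3.

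In P1KO, Gpx3 reads were more numerous and those of the other Gpx genes fewer. The 5 genes together reached 611 and 601 CPM in the controls, then 764 CPM in KO1 and 760 CPM in KO3. Without Gpx3, the other 4 summed to 575 and 561 CPM in CTL, 508 CPM in KO1 and 442 CPM in KO3. The summed level of the 5 genes was thus close in KO1 and KO3, although KO3 had more Gpx3 and less Gpx1 and Gpx4 than KO1. Reads of Gpx3 per read of Gpx1 were 0.121 and 0.141 in the CTL libraries, 0.926 in KO1 and 1.37 in KO3. The Gpx4 to Gpx1 ratio was 0.796 and 0.835 in CTL, 0.735 in KO1 and 0.792 in KO3, so the value of KO3 lay within the 95% counting interval of CTL1, 0.764 to 0.829, and just under that of CTL2, 0.801 to 0.870.

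The libraries of a genotype differed more in P1KO than in CTL for 5 of the 6 genes. The median difference over all tested genes was also larger in P1KO, so nothing particular to the set is read from this count. KO3 exceeded KO1 in Gpx3 by a factor of 1.24 (95% counting interval 1.19 to 1.29). The KO3 to KO1 ratio was 0.841 for Gpx1 (0.807 to 0.877), 0.905 for Gpx4 (0.863 to 0.950) and 1.05 for Selenop (1.04 to 1.06). For Gpx7 it was 0.850 and for Gpx8 1.02, with intervals that included equality. Between the CTL libraries the ratio of CTL2 to CTL1 was 1.11 for Gpx3, with an interval of 0.999 to 1.24, and 0.956 for Gpx1, with an interval of 0.920 to 0.994. Gpx8 was the exception, at 0.921 in CTL with an interval of 0.794 to 1.07. The median absolute log2 ratio over all tested genes was 0.095 for the CTL pair and 0.15 for the P1KO pair, and over the 6 genes it was 0.045 and 0.19.

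**Figure D4:**
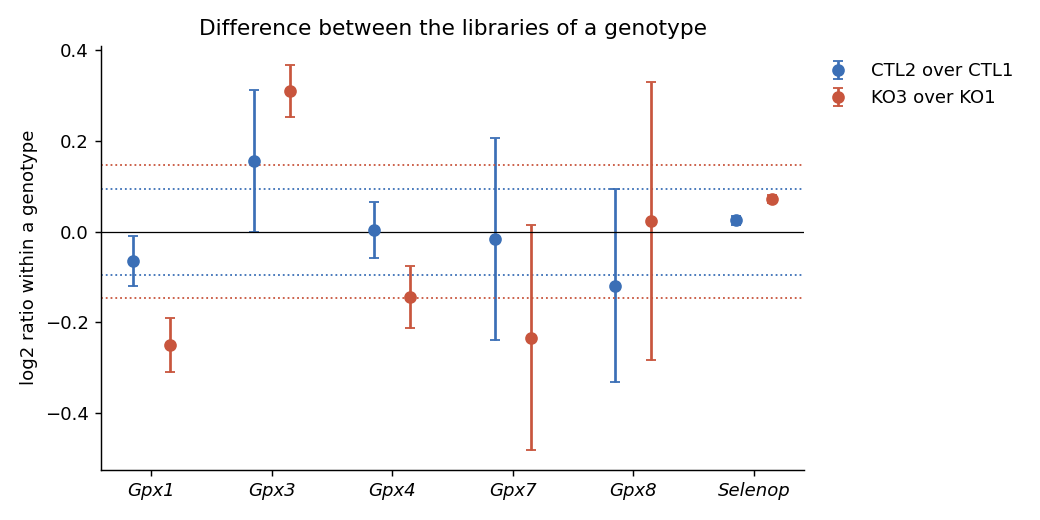
Log2 ratio between the libraries of a genotype (vertical axis) for each of the 6 genes, CTL2 over CTL1 in blue and KO3 over KO1 in red, with 95% exact binomial counting intervals. Dotted lines mark the median absolute log2 ratio over all tested genes, 0.095 for CTL and 0.15 for P1KO. In P1KO, Gpx3 lies above the upper line, and Gpx1 and Gpx7 lie below the lower one, with a Gpx7 interval that includes 0.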

How the data were processed

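The authors deposited 1 table of raw counts per Ensembl gene with 4 columns, and 0 columns were left unused. Reads were handled with featureCounts 1.5.0-p3, HISAT2 2.0.5, fastp and CASAVA on mm10, per the submitters' processing notes. Neither the annotation release nor the strand setting is stated there. The 15510 genes kept by filterByExpr were scaled with TMM and tested with edgeR 4.0.16 in R 4.3.3 (quasi-likelihood F-test, P1KO against CTL, no covariate). P-values were adjusted over all genes by the Benjamini-Hochberg method. The SE is the log2 fold change divided by the square root of F. A prior count of 2 was added for the profiles on the log2 scale. Intervals cover counting error only. Of the steps described here, only the edgeR fit was tried on simulated counts with known fold changes.

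The genes and the rule for naming others, which were the 6 genes and the closest profiles to Gpx3, were chosen with earlier results of these data known. The reference table (49997 genes, assembly GRCm38.p6) matched 0 of the 54532 identifiers, and the 6 genes were found there by symbol. Since other genes could not be named, the lists of pathway genes and cell type markers were left out, and only the 2 closest of the 5 profiles are printed. Alternatives were DESeq2 size factors, library totals, limma-voom (limma 3.58.1), DESeq2 1.42.0, other filters, a 1.5-fold minimum change and each library left out, with the 15510 genes kept.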

Additional observations from a re-analysis of the deposited data

How the results depend on the processing

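The log2 fold changes of the 6 genes kept their sign under every alternative run. Leaving out 1 library gave 2.75 to 3.06 for Gpx3, 0.38 to 0.45 for Selenop, -0.32 to -0.070 for Gpx1, -0.36 to -0.22 for Gpx4, -0.42 to -0.18 for Gpx7 and -1.09 to -0.97 for Gpx8. Under the 6 changes of scaling, test or filter the Gpx3 value stayed between 2.90 and 2.92. Leaving out 1 library moved the P1KO minus CTL difference in read share between 27.3 and 35.6 percentage points for Gpx3, whose direction the choice of the set fixes. The counts of calls depended more on the setting. Leaving out 1 library gave 120 to 5391 called genes, against 3027 with all 4 libraries, with 1 to 2 genes of the set called higher and 0 to 4 lower. The spread then came from the pair left, or from 1 group alone, and a group of 1 library was assumed to vary as the other did. With no low-count filter 1633 of 26155 tested genes passed (6.24%), of the set 2 higher and 1 lower. A required change of 1.5-fold left 270 of 15510 (1.74%), of the set 1 higher and 1 lower. Replacing distance by correlation kept 0 of the 5 profiles closest to Gpx3, while a prior count of 0.5 kept 5. Distance counts the size of a rise and correlation does not. Whether anything else contributed was not tested. No paired analysis was possible because no title carries the number of KO3. The alternatives for the lists of pathway genes were not run, for lack of symbols. Depth limits Gpx7 and Gpx8 most, with 178 to 379 reads a library.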

Other observations

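The genes of the set whose products carry selenocysteine (Gpx1, Gpx3, Gpx4 and Selenop) together made up 0.946% of CTL1 and 0.959% of CTL2, against 1.21% of KO1 and 1.30% of KO3. Nearly all of these reads were those of Selenop. Within this group the directions were split, with Gpx3 and Selenop higher and Gpx1 and Gpx4 lower in P1KO. Reads of Selenop per read of Gpx4 were 37.4 and 37.9 in the controls, 56.9 for KO1 and 66.0 for KO3. The genes with an active-site cysteine, Gpx7 and Gpx8, summed to 40.6 and 38.7 CPM in the CTL libraries and to 26.8 and 24.4 CPM in KO1 and KO3. These sums are descriptions of the same libraries and of the same contrast on which the set was chosen.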
